A study of Rattus norvegicus with 9 samples.

Results

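Aminoacyl-tRNA synthetase genes were examined across 9 RNA-seq libraries of the rat cell line NRK-49F, established from kidney fibroblasts. The genes were taken as the rows of the deposited gene table whose description names a tRNA synthetase or a tRNA ligase and that had a count in at least 1 library. The rule gave 44 of 22050 genes, of which 15031 had a count in any library. It placed 19 genes in a mitochondrial class, with a symbol ending in 2 or a description naming mitochondria, and the other 25 in a cytosolic class. All 44 passed the low-count filter before testing. Every library came from cells labelled wild type and incubated for 48 h with TGF-β1, which turns fibroblasts into matrix-producing myofibroblasts. In 3 libraries the cells also received the compound YWCH-4A, in 3 the compound YEXX-2A, and in 3 the vehicle. The labels name the compounds by code and state neither dose nor time of addition for them, and no library without TGF-β1 was analysed here. The labels call the 3 replicates of each condition biological without saying whether they were separate cultures, so the spread behind each p-value is that among libraries of 1 cell line and may be technical.

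Each synthetase joins 1 amino acid to its tRNAs, the step that sets the reading of the genetic code. Mammalian cells keep a cytosolic set and a nuclear-encoded mitochondrial set of these enzymes. Several cytosolic enzymes are bound together in the multisynthetase complex, held by the scaffold proteins Aimp1, Aimp2 and Eef1e1. In mammalian cells many cytosolic synthetase genes are known targets of ATF4, the transcription factor that is made when amino acids run short or the endoplasmic reticulum is stressed and that binds C/EBP-ATF response elements.

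The symbols follow the deposited table, in which Aars, Cars, Eprs, Gars and Kars stand for the genes now named Aars1, Cars1, Eprs1, Gars1 and Kars1. The mitochondrial class held Aimp2, a cytosolic scaffold, through its symbol alone. The cytosolic class held 8 enzymes of the complex, 13 enzymes outside it, the scaffold Aimp1, the editing-domain relatives Aarsd1 and Prorsd1, and LOC103690033, described as an isoleucine ligase-like copy. Gars and Kars serve both compartments from 1 gene. Mars2 and LOC100911305 carried identical counts in every library, as reads divided evenly between copies would give, and cannot be told apart. LOC103690033 may share reads with Iars1 and had pooled counts of 45.58 with YWCH-4A, 97.1 with YEXX-2A and 25.23 with vehicle, with no count in at least 1 library of each compound, and no fold change is given for it.

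The promoters of the cytosolic genes were searched for the C/EBP-ATF response element, spelled TGATGNAA, in the RefSeq promoter windows of assembly GRCr8, which run from 250 bases before to 50 after each gene's start. On the opposite strand the element reads TTNCATCA. Of 22 members of known cytosolic compartment with 1 promoter sequence, 7 held a match on either strand (31.8%), and of 15 mitochondrial members 0 did. Among all RefSeq promoters, 1332 of 33469 held one (3.98%). Gars, Rars1, LOC100911305 and LOC103690033 were among the members with no promoter sequence to search, and Mars2 had several. Each match is printed in capitals with up to 26 bases on each side, on the strand of the gene, because the genes that hold one are compared with the other cytosolic genes. Aars is given whole because it held a pair of matches, and Qars1 whole because it held none and was called higher with YWCH-4A.
Yars1 (chr5:146820175-146820212, plus strand): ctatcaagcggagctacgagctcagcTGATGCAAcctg
Nars1 (chr18:60275763-60275822, minus strand): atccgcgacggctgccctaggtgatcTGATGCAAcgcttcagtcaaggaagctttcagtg
Iars1 (chr17:15193643-15193702, minus strand): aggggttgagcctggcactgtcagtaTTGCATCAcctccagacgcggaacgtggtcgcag
Tars1 (chr2:62114796-62114855, minus strand): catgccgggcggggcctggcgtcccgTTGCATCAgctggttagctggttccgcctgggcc
Cars (chr1:208225320-208225378, minus strand): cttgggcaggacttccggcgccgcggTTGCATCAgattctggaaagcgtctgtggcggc
Mars1 (chr7:65023737-65023796, minus strand): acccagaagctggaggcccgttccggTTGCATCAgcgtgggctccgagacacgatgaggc
Aars (chr19:55908232-55908531, plus strand): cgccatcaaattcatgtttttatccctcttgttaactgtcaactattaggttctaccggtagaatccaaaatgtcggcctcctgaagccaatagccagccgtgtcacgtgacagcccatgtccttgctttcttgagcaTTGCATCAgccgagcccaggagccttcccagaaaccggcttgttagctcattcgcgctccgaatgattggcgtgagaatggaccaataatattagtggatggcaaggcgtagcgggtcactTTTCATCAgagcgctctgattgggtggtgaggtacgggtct
Qars1 (chr8:118085993-118086292, plus strand): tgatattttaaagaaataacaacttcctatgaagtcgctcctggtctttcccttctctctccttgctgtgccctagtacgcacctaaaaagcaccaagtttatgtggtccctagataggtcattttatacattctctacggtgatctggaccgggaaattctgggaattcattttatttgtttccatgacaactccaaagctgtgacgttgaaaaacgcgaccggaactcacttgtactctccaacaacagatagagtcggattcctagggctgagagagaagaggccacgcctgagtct

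Counted from the start of the gene, the matches began at -27 in Tars1, -24 in Iars1, -17 in Mars1, -14 in Nars1, 18 in Cars and 39 in Yars1, and at -112 and 10 in Aars. The Yars1 and Nars1 matches were on the strand of the gene and the others on the opposite strand. All but the second Aars match read TTGCATCA or its complement TGATGCAA. A match describes these letters alone, and a promoter without one is no evidence about any factor.

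Total estimated counts per library ran from 13675880 to 21923706. The biological coefficient of variation was 3.66% among YWCH-4A libraries, 7.39% among YEXX-2A libraries and 16.7% among vehicle libraries, and 4.68% among the vehicle libraries without replicate 2, which stood apart. The test pooled this spread over the 3 groups. Of the 44 genes, 9 lay at least 0.4 below and 7 at least 0.4 above the mean of the other vehicle libraries in vehicle replicate 2, on the log2 scale. Of the fibroblast markers, Vim, Pdgfra, Pdgfrb, Col1a1 and Col3a1 were abundant, while Thy1 and Dcn were under 1 CPM in every library. The 8 fibroblast markers summed to 10342 to 11264 CPM with YWCH-4A, 32007 to 35323 CPM with YEXX-2A and 42694 to 55669 CPM with vehicle. Leukocyte markers summed to at most 0.455 CPM and endothelial markers to at most 1.32 CPM. The kidney epithelial markers summed to 897 to 946 CPM with YWCH-4A, 1482 to 1568 CPM with YEXX-2A and 1713 to 2203 CPM with vehicle, nearly all of it Krt8, with Epcam and Krt18 at 0 throughout. The part of these markers in the results below was not tested.

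Per length, cytosolic synthetase transcripts were far more abundant than mitochondrial ones. The cytosolic class summed to 1529, 1513 and 1511 FPKM with YWCH-4A, 1904, 1936 and 1984 FPKM with YEXX-2A, and 2059.9, 2060.4 and 2049 FPKM with vehicle. The mitochondrial class summed to 174, 167 and 176 FPKM with YWCH-4A, 160.2, 156 and 163 FPKM with YEXX-2A, and 165, 169 and 160.5 FPKM with vehicle. The cytosolic sum was below vehicle in every library of both compounds, with no overlap between the 3 groups, while the mitochondrial sums with YWCH-4A were above those with YEXX-2A and overlapped vehicle. CPM is not scaled by length and uses TMM-scaled library sizes, while the FPKM values are as the authors made them. The TMM factors were 1.06 to 1.07 with YWCH-4A, 0.989 to 1.004 with YEXX-2A and 0.898 to 0.972 with vehicle. The CPM and FPKM scales can therefore order the groups differently. In CPM the mitochondrial class summed to 362, 351 and 371 CPM with YWCH-4A, 346, 339 and 359 CPM with YEXX-2A, and 371, 408 and 377 CPM with vehicle. On that scale the compounds overlapped each other and both were below every vehicle library, by under 1 CPM at the closest. Both sums include the cytosolic scaffold Aimp2. Without it, the mitochondrial genes summed to 128.2, 126.5 and 132.8 FPKM with YWCH-4A and 118.3, 121.3 and 121.5 FPKM with vehicle. YWCH-4A was then above every vehicle library in FPKM. In CPM they summed to 316, 312 and 329 with YWCH-4A, 297, 295 and 313 with YEXX-2A, and 321, 353 and 334 with vehicle. There YWCH-4A overlapped vehicle, and YEXX-2A was below every vehicle library. Gars, the glycine enzyme, was the most abundant member at 239 ± 2.23 FPKM with YWCH-4A, 338 ± 13.9 with YEXX-2A and 391 ± 6.40 with vehicle (SD, n = 3 each). Sars1, for serine, followed at 131 ± 1.62 FPKM with YWCH-4A, 186 ± 7.34 with YEXX-2A and 224 ± 10.05 with vehicle, and Cars, for cysteine, at 123 ± 2.33 FPKM with YWCH-4A, 179 ± 5.49 with YEXX-2A and 208 ± 13.2 with vehicle. The least abundant cytosolic synthetase was Tars3, a second threonine enzyme, at 2.65 ± 0.153 FPKM with YWCH-4A, 3.40 ± 0.356 with YEXX-2A and 2.11 ± 0.667 with vehicle. In the mitochondrial class, Aimp2 led at 43.01 ± 2.69 FPKM with YWCH-4A, 43.9 ± 2.33 with YEXX-2A and 44.4 ± 4.73 with vehicle. The most abundant true mitochondrial enzyme was Iars2, for isoleucine, at 26.3 ± 0.696 FPKM with YWCH-4A, 23.2 ± 1.57 with YEXX-2A and 23.97 ± 1.92 with vehicle. Rars2, for arginine, was at 1.11 ± 0.221 FPKM with YWCH-4A, 1.53 ± 0.415 with YEXX-2A and 0.877 ± 0.313 with vehicle, among the lowest.

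**Figure D1:**
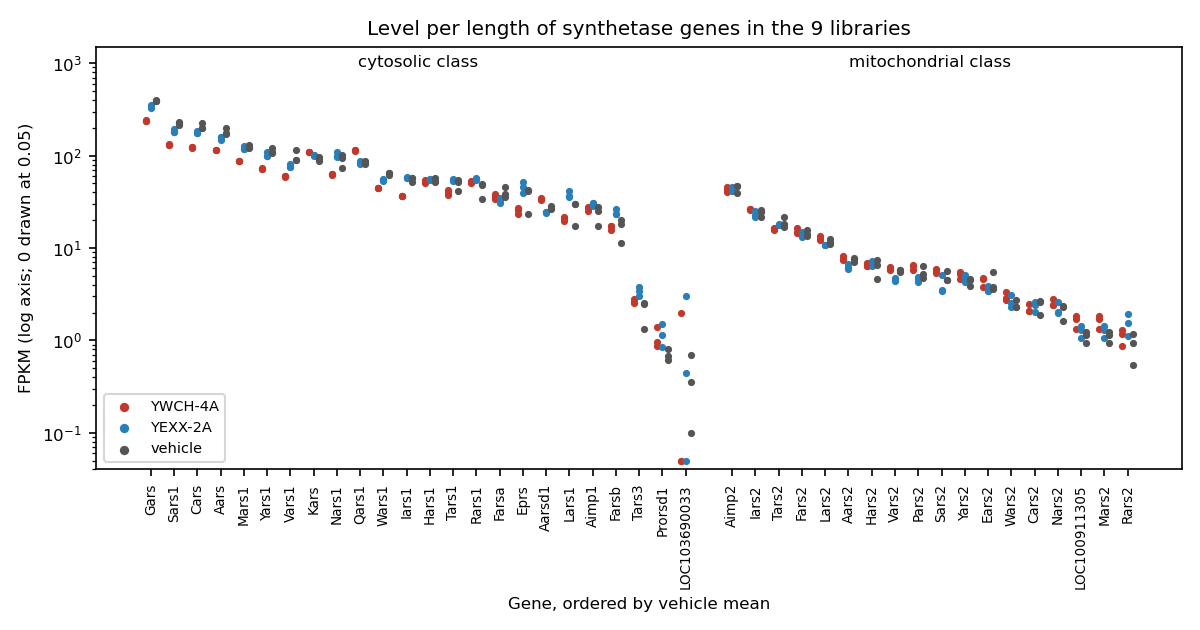
FPKM of the members on a log axis, with 1 point per library and the genes of each class ordered by their vehicle mean. Members whose values are not reported here are left out. Gars is the highest gene of the cytosolic class and Aimp2 of the mitochondrial class, and the YWCH-4A points of Gars, Sars1, Cars and Aars lie below the other points.

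With YWCH-4A, most cytosolic synthetases fell: 15 of the 25 genes of the cytosolic class were called lower and 1 higher than with vehicle at an adjusted p under 0.05 (edgeR quasi-likelihood test, Benjamini-Hochberg over all genes tested). Of all 11473 genes tested, 30.6% were called in this comparison, 14.9% lower and 15.7% higher. The median log2 fold change of the class was -0.48, beside 0.03 over all genes tested. In libraries of bulk RNA, fewer cells of a type and less RNA per cell cannot be told apart. In the mitochondrial class 1 of 19 genes was called higher and 1 lower, with a median of -0.02. Without vehicle replicate 2, the calls were 2 higher and 17 lower in the cytosolic class and 1 higher and 1 lower in the mitochondrial class, where 39.8% of all genes were called, 20.5% higher and 19.3% lower. On the log2(FPKM + 1) scale, where the median of all genes itself stood at 0.18, limma-trend called 3 cytosolic genes higher and 11 lower, with a class median of -0.26, and 3 mitochondrial genes higher and 0 lower, with a median of 0.13.

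With YEXX-2A, the cytosolic class split: 4 of 25 genes were called higher and 8 lower than with vehicle, beside 36.1% of all genes called, 17.6% higher and 18.5% lower. The 12 genes called of 25 stand not far above that background. The class median was -0.02, beside 0.01 over all genes tested. On the log2(FPKM + 1) scale it was 0.06, beside 0.07 over all genes. In the mitochondrial class 1 of 19 genes was called higher and 2 lower, with a median of -0.11. Without vehicle replicate 2, 4 cytosolic genes were called higher and 8 lower, and 0 mitochondrial genes higher and 2 lower, with 35.7% of all genes called, 17.9% in each direction. These calls rested on few libraries: without YEXX-2A replicate 1, 0 cytosolic genes were called higher and 3 lower, and without YEXX-2A replicate 2, 0 higher and 2 lower. With only YEXX-2A and vehicle libraries in the fit, 2 cytosolic genes were called, both lower. The calls over all 11473 genes tested fell in these settings too. They went from 4145 to 1474 without YEXX-2A replicate 1, to 1067 without YEXX-2A replicate 2 and to 1361 with only the 2 groups. All 4 cytosolic genes called higher on all 9 libraries had their lowest vehicle value in replicate 2.

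**Figure D2:**
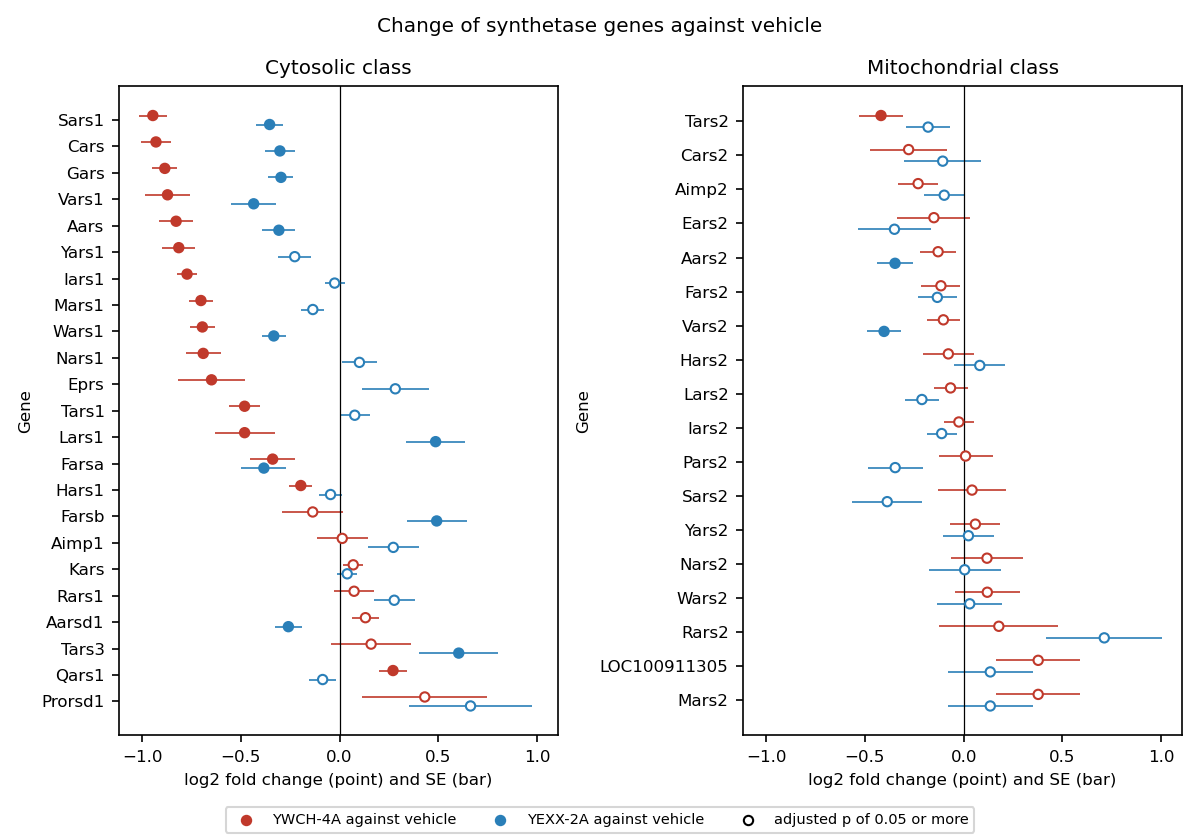
Log2 fold change of the genes against vehicle (point) with its standard error (bar), for YWCH-4A (red) and YEXX-2A (blue), with genes of each class ordered by their change with YWCH-4A. Filled points passed an adjusted p of 0.05. LOC103690033 and the members whose values are not reported here are not drawn. The cytosolic genes run from Sars1 at -0.95 to Prorsd1 at 0.43 with YWCH-4A, and most mitochondrial genes lie near 0.

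Between the compounds, YWCH-4A was lower than YEXX-2A at 15 of 25 cytosolic genes and higher at 2, beside 31.3% of all genes called, 15.1% lower and 16.2% higher. The median was -0.56 in the cytosolic class and 0.11 in the mitochondrial class, beside 0.00 over all genes (edgeR). Of the mitochondrial genes, 1 was called higher and 0 lower. Without vehicle replicate 2, whose spread enters the pooled fit, 2 cytosolic genes were called higher and 19 lower, and 4 mitochondrial genes higher and 1 lower, with 52.1% of all genes called, 25.6% higher and 26.4% lower. The mitochondrial count was 0 without YEXX-2A replicate 2, without YWCH-4A replicate 2 or without YWCH-4A replicate 3. It was 5, all higher, with limma-trend on log2(FPKM + 1).

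Of the 13 cytosolic enzymes outside the multisynthetase complex, 11 were called lower with YWCH-4A and 0 higher, with a median log2 fold change of -0.69. With YEXX-2A 7 were called lower and 2 higher, with a median of -0.30. Of all genes tested, 30.6% were called with YWCH-4A, 14.9% lower, and 36.1% with YEXX-2A, 18.5% lower. Their summed level was 1008, 992 and 993 FPKM with YWCH-4A, 1337, 1348 and 1408 FPKM with YEXX-2A, and 1511, 1580.5 and 1499.5 FPKM with vehicle. Every YWCH-4A library was below every YEXX-2A library, and every YEXX-2A library below every vehicle library. Without YEXX-2A replicate 2, Sars1 and Wars1 were the enzymes still called lower with YEXX-2A. Without YEXX-2A replicate 1, Gars, Sars1 and Wars1 were.

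Sars1, the serine enzyme, was at 233, 227 and 230.3 CPM with YWCH-4A, 337, 337 and 366 CPM with YEXX-2A, and 430.2, 484 and 415 CPM with vehicle. The 3 groups did not overlap, with YWCH-4A lowest and vehicle highest. Against vehicle it changed by -0.95 (SE 0.07, adjusted p = 2.78e-06) with YWCH-4A and -0.35 (SE 0.07, adjusted p = 0.00701) with YEXX-2A on the log2 scale. Cars, the cysteine enzyme, was at 357, 343 and 355 CPM with YWCH-4A, 530.2, 531 and 568 CPM with YEXX-2A, and 627, 752 and 629.6 CPM with vehicle. Its groups stood in the same order with no overlap. Cars changed by -0.93 (SE 0.08, adjusted p = 6.57e-06) with YWCH-4A and -0.30 (SE 0.08, adjusted p = 0.0169) with YEXX-2A on the log2 scale. Gars, which charges glycine in the cytosol and in mitochondria, was at 537, 527 and 534 CPM with YWCH-4A, 769.5, 789 and 846 CPM with YEXX-2A, and 947, 1051 and 955 CPM with vehicle. Here too the groups were apart, and the log2 fold change was -0.88 (SE 0.06, adjusted p = 2.35e-06) with YWCH-4A and -0.30 (SE 0.06, adjusted p = 0.00963) with YEXX-2A.

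Vars1, for valine, was at 221, 209.5 and 215 CPM with YWCH-4A, 282, 285 and 308 CPM with YEXX-2A, and 348, 484 and 349.7 CPM with vehicle. Its vehicle replicate 2 was the highest library by a wide margin, and both compound groups were below all vehicle libraries. Vars1 had a log2 fold change of -0.87 (SE 0.11, adjusted p = 2.08e-04) with YWCH-4A and -0.43 (SE 0.11, adjusted p = 0.0186) with YEXX-2A, and without vehicle replicate 2 it was -0.70 (adjusted p = 1.24e-09) with YWCH-4A and -0.26 (adjusted p = 5.12e-04) with YEXX-2A. Aars, for alanine, was at 379, 370.3 and 383 CPM with YWCH-4A, 553, 510.3 and 561 CPM with YEXX-2A, and 611, 765 and 633 CPM with vehicle. The 3 groups did not overlap. Its log2 fold change was -0.83 (SE 0.08, adjusted p = 3.30e-05) with YWCH-4A and -0.31 (SE 0.08, adjusted p = 0.0216) with YEXX-2A, where it was -0.20 (adjusted p = 0.00358) without vehicle replicate 2. Yars1, for tyrosine, fell with YWCH-4A at -0.81 (SE 0.08, adjusted p = 3.73e-05) and stood at -0.23 (SE 0.08, adjusted p = 0.0547) with YEXX-2A, which did not pass the test. With YEXX-2A Yars1 was at -0.13 (adjusted p = 0.0575) without vehicle replicate 2, and it was called with DESeq2 at -0.24 (adjusted p = 0.0433), without vehicle replicate 3 at -0.28 (adjusted p = 0.0271) and without YEXX-2A replicate 3 at -0.28 (adjusted p = 0.0473).

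Wars1, the tryptophan enzyme, is known in human cells as an interferon-inducible gene. It was at 119.7, 119.7 and 122 CPM with YWCH-4A, 154, 152 and 159 CPM with YEXX-2A, and 190.1, 209 and 186 CPM with vehicle. All YWCH-4A libraries were below all YEXX-2A libraries, which were below all vehicle libraries. Wars1 changed on the log2 scale by -0.69 (SE 0.06, adjusted p = 1.18e-05) with YWCH-4A and -0.33 (SE 0.06, adjusted p = 0.00565) with YEXX-2A against vehicle.

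Nars1 and Tars1, for asparagine and threonine, fell with YWCH-4A both against vehicle and against YEXX-2A. Nars1 was at 154, 154 and 154 CPM with YWCH-4A, 253, 281 and 264 CPM with YEXX-2A, and 254, 213 and 277 CPM with vehicle. The YWCH-4A libraries were nearly alike and below all others, while the YEXX-2A and vehicle libraries overlapped. Nars1 changed on the log2 scale by -0.69 (SE 0.09, adjusted p = 1.83e-04) with YWCH-4A and 0.10 (SE 0.09, adjusted p = 0.366) with YEXX-2A, and directly between the compounds it was -0.79 (SE 0.09, adjusted p = 7.70e-05). Tars1 changed by -0.48 (SE 0.08, adjusted p = 8.90e-04) with YWCH-4A, by 0.08 (SE 0.08, adjusted p = 0.431) with YEXX-2A, and by -0.56 (SE 0.08, adjusted p = 3.49e-04) between the compounds. Tars3, a threonine enzyme of low abundance, was at 5.07, 4.51 and 4.75 CPM with YWCH-4A, 5.78, 7.12 and 6.66 CPM with YEXX-2A, and 4.95, 2.85 and 4.96 CPM with vehicle. Vehicle replicate 2 was the lowest library. The log2 fold change of Tars3 was 0.16 (SE 0.20, adjusted p = 0.586) with YWCH-4A, which did not pass, and 0.60 (SE 0.20, adjusted p = 0.039) with YEXX-2A, where it became 0.39 (adjusted p = 0.0707) without vehicle replicate 2. The Tars3 call with YEXX-2A was also lost without any single YEXX-2A or YWCH-4A replicate, with only the 2 groups compared and with the replicate block.

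Farsa and Farsb are the alpha and beta subunits of the cytosolic phenylalanine enzyme. Farsa was at 64.5, 56.9 and 60.03 CPM with YWCH-4A, 57.7, 55.2 and 63.3 CPM with YEXX-2A, and 70.5, 91.7 and 67.5 CPM with vehicle. Both compound groups were below all vehicle libraries, the highest of which was replicate 2. Farsa changed on the log2 scale by -0.34 (SE 0.11, adjusted p = 0.0444) with YWCH-4A and -0.38 (SE 0.11, adjusted p = 0.028) with YEXX-2A. Leaving out vehicle replicate 2, Farsa was at -0.19 (adjusted p = 0.0357) with YWCH-4A and -0.24 (adjusted p = 0.0135) with YEXX-2A. The Farsa call with YWCH-4A was lost without any single YWCH-4A or YEXX-2A replicate, with only the 2 groups compared, with the replicate block and with limma-trend on log2(FPKM + 1). The call with YEXX-2A was lost without YEXX-2A replicate 1 or 2, with only the 2 groups and with the block. Farsb was at 36.2, 36.3 and 33.02 CPM with YWCH-4A, 52.03, 59.2 and 51.9 CPM with YEXX-2A, and 45.6, 27.7 and 42.4 CPM with vehicle. For Farsb, vehicle replicate 2 was the lowest library of all 9, and the YEXX-2A libraries were the highest. Farsb had a log2 fold change of -0.14 (SE 0.15, adjusted p = 0.539) with YWCH-4A, which did not pass the test, and 0.49 (SE 0.15, adjusted p = 0.0323) with YEXX-2A. Leaving out vehicle replicate 2, Farsb changed by -0.32 (adjusted p = 0.00268) with YWCH-4A and by 0.31 (adjusted p = 0.00522) with YEXX-2A. The Farsb call with YEXX-2A was lost without any single YEXX-2A replicate, without YWCH-4A replicate 1, with only the 2 groups and with the block. Hars1, for histidine, differed least among the called enzymes, at -0.20 (SE 0.06, adjusted p = 0.0272) with YWCH-4A and -0.05 (SE 0.06, adjusted p = 0.544) with YEXX-2A. The Hars1 call was lost with no low-count filter at adjusted p = 0.0517, with limma-trend on log2(FPKM + 1) at -0.02 (adjusted p = 0.764), with only the 2 groups, with the block, without vehicle replicate 3 and without each YWCH-4A replicate.

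The enzymes of the multisynthetase complex did not share a direction. Of its 8 enzymes, 4 were called lower and 1 higher with YWCH-4A, with a median log2 fold change of -0.29, and 2 were called higher and 0 lower with YEXX-2A, with a median of 0.16. Of all genes, 30.6% were called with YWCH-4A and 36.1% with YEXX-2A, so the 2 of 8 with YEXX-2A are below that background. Between the compounds 5 were lower and 1 higher with YWCH-4A, with a median of -0.58. The 8 enzymes summed to 459, 459.5 and 454 FPKM with YWCH-4A, 513, 528 and 519.6 FPKM with YEXX-2A, and 496, 432 and 494 FPKM with vehicle. The YWCH-4A sums were below all YEXX-2A sums and below vehicle replicates 1 and 3, and vehicle replicate 2 was the lowest library. In CPM the 8 enzymes summed to 1221, 1224 and 1216 CPM with YWCH-4A, 1541, 1594 and 1569 CPM with YEXX-2A, and 1534, 1418 and 1552 CPM with vehicle, where every YWCH-4A library was below every vehicle library. The 2 enzymes called higher with YEXX-2A, one of them Lars1, were not called without YEXX-2A replicate 1 or without YEXX-2A replicate 2.

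Iars1, for isoleucine, was at 154, 154 and 153 CPM with YWCH-4A, 257, 256 and 262 CPM with YEXX-2A, and 263, 259 and 267 CPM with vehicle. The YWCH-4A libraries were nearly alike and far below the other 6, which overlapped. Iars1 had a log2 fold change of -0.77 (SE 0.05, adjusted p = 1.14e-06) with YWCH-4A and -0.02 with YEXX-2A (95% interval -0.14 to 0.09, adjusted p = 0.71). With the counts of LOC103690033 added, the changes were -0.77 with YWCH-4A and -0.02 with YEXX-2A. Mars1, for methionine, changed by -0.70 (SE 0.06, adjusted p = 7.01e-06) with YWCH-4A and by -0.14 (SE 0.06, adjusted p = 0.087) with YEXX-2A, of which the second did not pass.

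Lars1, for leucine, was at 70.2, 78.5 and 76.6 CPM with YWCH-4A, 142, 159.7 and 139 CPM with YEXX-2A, and 119, 75.02 and 120.3 CPM with vehicle. The YEXX-2A libraries were above all others, the YWCH-4A libraries were below vehicle replicates 1 and 3, and vehicle replicate 2 lay within the YWCH-4A range. On the log2 scale Lars1 changed by -0.48 (SE 0.15, adjusted p = 0.0348) with YWCH-4A, by 0.49 (SE 0.15, adjusted p = 0.0319) with YEXX-2A and by -0.97 (SE 0.15, adjusted p = 8.04e-04) between the compounds. With vehicle replicate 2 left out, the changes of Lars1 were -0.67 (adjusted p = 1.75e-07) with YWCH-4A and 0.30 (adjusted p = 0.00193) with YEXX-2A. With YWCH-4A the call was lost when any of vehicle replicates 1 and 3, YEXX-2A replicate 1 and the 3 YWCH-4A replicates was left out. It was also lost with only the 2 groups compared, at adjusted p = 0.0605, and with the replicate block, at adjusted p = 0.085.

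Eprs, which carries the glutamate and proline enzymes in 1 protein, was at 117, 122 and 107 CPM with YWCH-4A, 218, 247 and 193 CPM with YEXX-2A, and 206, 125 and 211 CPM with vehicle. Vehicle replicate 2 again lay near the YWCH-4A libraries and the other vehicle libraries near the YEXX-2A ones. Eprs had a log2 fold change of -0.65 (SE 0.17, adjusted p = 0.0146) with YWCH-4A, 0.28 with YEXX-2A (95% interval -0.09 to 0.66, adjusted p = 0.194) and -0.93 (SE 0.17, adjusted p = 0.00218) between the compounds. Without vehicle replicate 2 the change of Eprs was -0.85 (adjusted p = 8.35e-05) with YWCH-4A and 0.08 (adjusted p = 0.537) with YEXX-2A. The call with YWCH-4A was lost without vehicle replicate 1 or without YWCH-4A replicate 3, and, as for Lars1, with limma-trend on log2(FPKM + 1), at adjusted p = 0.115 for Eprs and 0.256 for Lars1.

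Qars1, for glutamine, was the only cytosolic member called higher with YWCH-4A in the edgeR test on all 9 libraries. It was at 303, 292 and 304 CPM with YWCH-4A, 231, 224 and 247 CPM with YEXX-2A, and 242, 270.4 and 233 CPM with vehicle. The YWCH-4A libraries were above all others, and the YEXX-2A and vehicle ranges overlapped. Qars1 had a log2 fold change of 0.27 (SE 0.07, adjusted p = 0.0124) with YWCH-4A and -0.09 with YEXX-2A (95% interval -0.24 to 0.07, adjusted p = 0.329). The call with YWCH-4A was lost without YWCH-4A replicate 1, at adjusted p = 0.0609, or without YWCH-4A replicate 3, at adjusted p = 0.0608. It was also lost with only the 2 groups compared, at adjusted p = 0.0522.

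Kars, which charges lysine in both compartments, was at 219, 218 and 221 CPM with YWCH-4A, 212, 215 and 218 CPM with YEXX-2A, and 213, 210.3 and 205 CPM with vehicle. Its log2 fold change was 0.07 with YWCH-4A (95% interval -0.04 to 0.18, adjusted p = 0.331) and 0.04 with YEXX-2A (95% interval -0.07 to 0.15, adjusted p = 0.55). The intervals are narrow on the count scale, while on the log2(FPKM + 1) scale it was called higher with YWCH-4A at 0.24 (limma-trend, adjusted p = 0.00315), beside the median of 0.18 over all genes. Rars1, for arginine, was at 0.07 (SE 0.10, adjusted p = 0.621) with YWCH-4A and 0.28 (SE 0.10, adjusted p = 0.055) with YEXX-2A. With YEXX-2A it was called without vehicle replicate 2, at 0.15 (adjusted p = 0.0267), and without vehicle replicate 3, at 0.36 (adjusted p = 0.0202), and also with DESeq2, limma-voom and limma-trend on log2(FPKM + 1), at adjusted p = 0.0361, 0.0455 and 0.0478.

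The scaffold genes Aimp1 and Aimp2 did not pass the test against vehicle. Aimp1 was at 29.2, 28.4 and 26.7 CPM with YWCH-4A, 31.7, 34.4 and 34.8 CPM with YEXX-2A, and 28.7, 21.9 and 32.9 CPM with vehicle. The groups overlapped, and vehicle replicate 2 was the lowest library. Its log2 fold change was 0.01 with YWCH-4A (95% interval -0.27 to 0.30, adjusted p = 0.945) and 0.27 (SE 0.13, adjusted p = 0.113) with YEXX-2A. With YEXX-2A Aimp1 was at 0.13 (adjusted p = 0.242) without vehicle replicate 2, and it was called without vehicle replicate 3, at 0.41 (adjusted p = 0.0232). Aimp2 was at 45.7, 39.3 and 41.7 CPM with YWCH-4A, 48.6, 43.8 and 46.5 CPM with YEXX-2A, and 49.9, 55.5 and 43.4 CPM with vehicle. The groups of Aimp2 overlapped, and the change was -0.23 (SE 0.10, adjusted p = 0.106) with YWCH-4A and -0.10 with YEXX-2A (95% interval -0.32 to 0.12, adjusted p = 0.438). With YWCH-4A Aimp2 was at -0.14 (adjusted p = 0.169) without vehicle replicate 2, and it was called without vehicle replicate 3, at -0.32 (adjusted p = 0.0277). The scaffold Eef1e1, which the description rule does not select, was at 33.1, 36.9 and 37.1 CPM with YWCH-4A, 45.5, 48.6 and 45.9 CPM with YEXX-2A, and 36.2, 27.7 and 38.05 CPM with vehicle. It changed by 0.07 (SE 0.11, adjusted p = 0.684) with YWCH-4A, which did not pass, and by 0.46 (SE 0.11, adjusted p = 0.0157) with YEXX-2A. Its lowest library was vehicle replicate 2. Aarsd1, a stand-alone editing protein that resembles the editing domain of the alanine enzyme, was at 0.13 (SE 0.07, adjusted p = 0.177) with YWCH-4A and -0.26 (SE 0.07, adjusted p = 0.0201) with YEXX-2A, and between the compounds at 0.39 (SE 0.07, adjusted p = 0.00176). With YWCH-4A Aarsd1 was called higher without vehicle replicate 2, at 0.20 (adjusted p = 0.00413). Prorsd1, another editing-domain relative, averaged about 1 CPM and did not pass in any comparison.

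**Figure D3:**
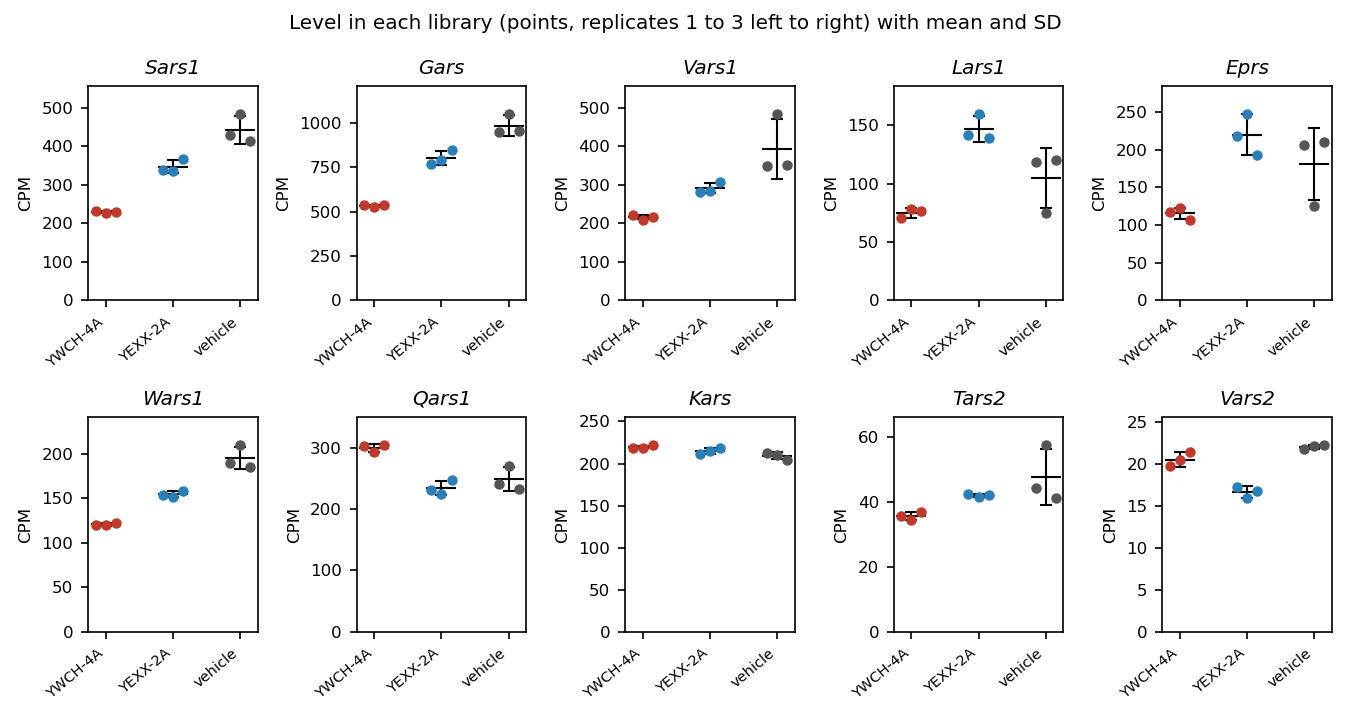
CPM of 10 members in each library (points, replicates 1 to 3 from left to right) with the mean and SD of each group (n = 3). Sars1, Gars, Vars1 and Wars1 are lowest with YWCH-4A and highest with vehicle. Lars1 is highest with YEXX-2A, while the YEXX-2A and vehicle libraries of Eprs overlap. Qars1 is highest with YWCH-4A, and all Kars libraries lie between 205 and 221 CPM.

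In the mitochondrial class few genes passed the test against vehicle, and Tars2, Vars2 and Aars2 were among those that did. Vars2, for valine, was at 19.7, 20.4 and 21.4 CPM with YWCH-4A, 17.2, 15.9 and 16.8 CPM with YEXX-2A, and 21.7, 22.1 and 22.2 CPM with vehicle. The YEXX-2A libraries were below all others. The log2 fold change was -0.10 (SE 0.08, adjusted p = 0.382) with YWCH-4A and -0.40 (SE 0.08, adjusted p = 0.00917) with YEXX-2A, and between the compounds it was 0.30 (SE 0.08, adjusted p = 0.0205). Aars2, for alanine, was at 26.98, 27.2 and 29.5 CPM with YWCH-4A, 23.6, 22.4 and 26.04 CPM with YEXX-2A, and 30.6, 32.5 and 28.4 CPM with vehicle. YEXX-2A was below all vehicle libraries, and YWCH-4A overlapped vehicle. Its log2 fold change was -0.13 (SE 0.09, adjusted p = 0.316) with YWCH-4A and -0.35 (SE 0.09, adjusted p = 0.0201) with YEXX-2A. Without YEXX-2A replicate 1 or YEXX-2A replicate 2, Vars2 was the sole mitochondrial gene called with YEXX-2A.

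Tars2, for threonine, was at 35.7, 34.4 and 36.96 CPM with YWCH-4A, 42.5, 41.5 and 42.2 CPM with YEXX-2A, and 44.3, 57.5 and 41.3 CPM with vehicle. YWCH-4A was below all vehicle libraries, the highest of which was replicate 2. The log2 fold change was -0.42 (SE 0.11, adjusted p = 0.0159) with YWCH-4A and -0.18 (SE 0.11, adjusted p = 0.21) with YEXX-2A. Tars2 was at -0.27 (adjusted p = 0.00427) with YWCH-4A and -0.03 (adjusted p = 0.78) with YEXX-2A when vehicle replicate 2 was left out. The call with YWCH-4A was lost without YWCH-4A replicate 1 or without YWCH-4A replicate 2, which left 1 mitochondrial gene called, and with limma-trend on log2(FPKM + 1) at adjusted p = 0.0752. Without vehicle replicate 3, Aimp2 was called as well, which made 3. The pooled Mars2 and LOC100911305 counts, for methionine, changed by 0.39 (adjusted p = 0.14) with YWCH-4A and by 0.12 (adjusted p = 0.636) with YEXX-2A. Iars2 was at -0.02 (SE 0.08, adjusted p = 0.832) with YWCH-4A and -0.11 (SE 0.08, adjusted p = 0.25) with YEXX-2A. The remaining mitochondrial genes that were not called lay between -0.28 (Cars2) and 0.18 (Rars2) with YWCH-4A.

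The 7 cytosolic genes with a match were all called lower with YWCH-4A than with vehicle, at log2 fold changes of -0.93 (Cars) to -0.48 (Tars1) and a median of -0.77. Of the 15 cytosolic genes with a promoter but no match, 7 were called lower and 1 higher, at -0.95 (Sars1) to 0.43 (Prorsd1) and a median of -0.20. These 15 include the scaffolds Aimp1 (0.01) and Aimp2 (-0.23) and the editing-domain relatives Aarsd1 (0.13) and Prorsd1, none of them called with YWCH-4A. The matched genes are all synthetases, so the medians compare unlike sets. Between the compounds the 7 matched genes were also all lower with YWCH-4A, at a median of -0.59, while of the 15 others 6 were lower and 2 higher, at a median of -0.26. With YEXX-2A against vehicle, 2 of the 7 were called lower and 0 higher, at a median of -0.14, and 5 of the 15 lower and 3 higher, at a median of -0.05. Of all genes tested, 30.6% were called with YWCH-4A against vehicle, 14.9% lower, and 31.3% between the compounds, 15.1% lower. With YEXX-2A against vehicle 36.1% were called, 18.5% lower, so the 2 of 7 are below the share called in either direction. In the comparison of YWCH-4A with vehicle, all 7 were called lower under every alternative, except that 6 were when a 1.5-fold change was also asked for. The 7 were not set apart by a test, and Sars1, Vars1 and Wars1, with no match in this window, fell by amounts within or beyond the range of the matched genes.

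**Figure D4:**
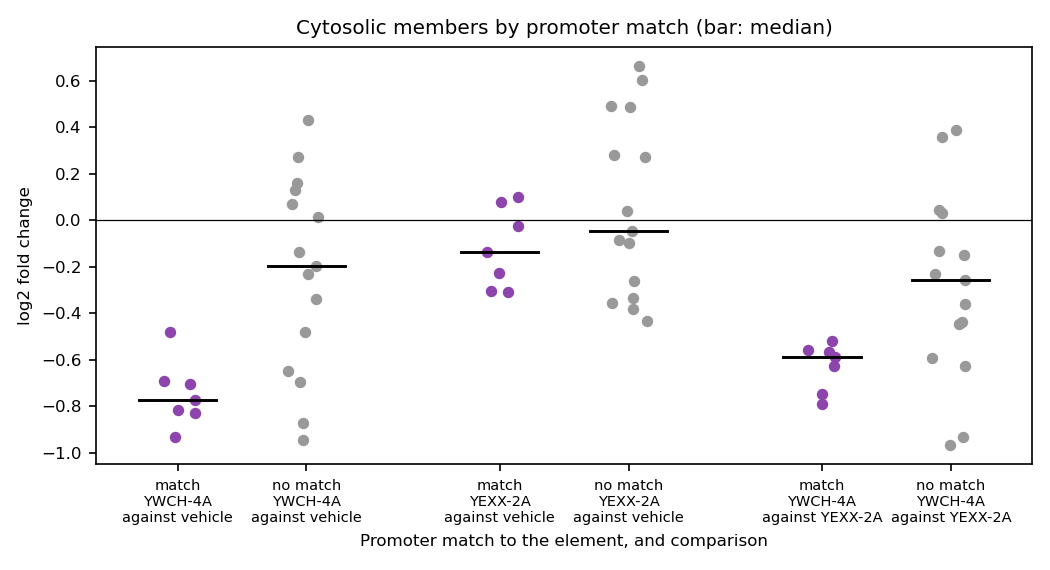
Log2 fold change of the 22 cytosolic genes with 1 promoter sequence, split by a match to the element (purple, 7 genes) or none (grey, 15 genes) in each comparison, with the median as a bar. The grey genes include Aimp1, Aimp2, Aarsd1 and Prorsd1, which are not synthetases. The matched genes lie between -0.93 and -0.48 with YWCH-4A against vehicle, inside the wider spread of the others.

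Atf4 itself was at 299.8, 302 and 307 CPM with YWCH-4A, 571, 607 and 613 CPM with YEXX-2A, and 615, 737 and 659 CPM with vehicle. The YWCH-4A libraries were far below all others, and YEXX-2A was below every vehicle library. The log2 fold change was -1.15 (SE 0.07, adjusted p = 8.03e-07) with YWCH-4A and -0.17 (SE 0.07, adjusted p = 0.0843) with YEXX-2A, which did not pass and was -0.09 (adjusted p = 0.124) without vehicle replicate 2, and -0.98 (SE 0.07, adjusted p = 3.05e-06) between the compounds. Of 29 tested genes on a list of Atf4 itself, ATF4 targets and amino acid response genes other than synthetases, 25 were called lower and 1 higher with YWCH-4A, at a median of -1.21, beside 30.6% of all genes called. With YEXX-2A 19 were lower and 3 higher, at a median of -0.30, beside 36.1% of all genes called. Without vehicle replicate 2 the counts were 26 lower and 1 higher with YWCH-4A and 20 lower and 3 higher with YEXX-2A. The smallest p-values with YWCH-4A were those of Chac1, which degrades glutathione, at -2.80 (SE 0.12, adjusted p = 5.69e-08), of Stc2, a secreted glycoprotein, at -2.55 (SE 0.11, adjusted p = 6.74e-08), and of Asns, asparagine synthetase, at -1.25 (SE 0.06, adjusted p = 7.01e-08). With YEXX-2A they were those of Pycr1, an enzyme of proline synthesis, at -0.68 (SE 0.10, adjusted p = 0.0026), of Stc2 at -0.63 (SE 0.10, adjusted p = 0.00368), and of Eif4ebp1, a repressor of cap-dependent translation, at -0.43 (SE 0.08, adjusted p = 0.00612). Of the 29 genes of this list with a promoter sequence, tested or not, 6 held the element in at least 1 promoter (20.7%). Genes of this list with several promoters were kept, unlike such genes among the synthetases.

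Of 7 tested genes of tRNA delivery and export, 1 was called higher and 2 lower with YWCH-4A, at a median of -0.04, and 2 higher and 2 lower with YEXX-2A, at a median of 0.17, beside 30.6% of all genes called with YWCH-4A and 36.1% with YEXX-2A. Eef1a1, the elongation factor that brings aminoacyl-tRNA to the ribosome, was at 4889, 5209.7 and 5085 CPM with YWCH-4A, 4795, 5133 and 5049 CPM with YEXX-2A, and 3947, 3236 and 4069 CPM with vehicle. Both compound groups were above all vehicle libraries, at 0.43 (SE 0.09, adjusted p = 0.00333) with YWCH-4A and 0.41 (SE 0.09, adjusted p = 0.009) with YEXX-2A on the log2 scale. Of the subunits of its exchange factor, Eef1d changed by -0.30 (SE 0.07, adjusted p = 0.00613) with YWCH-4A and -0.19 (SE 0.07, adjusted p = 0.0496) with YEXX-2A. Eef1g changed by -0.04 (SE 0.07, adjusted p = 0.717) with YWCH-4A and -0.21 (SE 0.07, adjusted p = 0.0374) with YEXX-2A. Without vehicle replicate 2 the changes with YEXX-2A were -0.11 (adjusted p = 0.0449) for Eef1d and -0.14 (adjusted p = 0.0205) for Eef1g. Xpot, the exporter of tRNA from the nucleus, was at 54.00, 57.4 and 51.8 CPM with YWCH-4A, 93.2, 99.6 and 93.1 CPM with YEXX-2A, and 84.6, 61.9 and 95.5 CPM with vehicle. The YWCH-4A libraries were the lowest, vehicle replicate 2 was next, and the change was -0.57 (SE 0.13, adjusted p = 0.00702) with YWCH-4A and 0.24 (SE 0.13, adjusted p = 0.152) with YEXX-2A, the second of which was 0.08 (adjusted p = 0.317) without vehicle replicate 2.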

How the data were processed

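Poly(A) RNA of NRK-49F cells was sequenced, with libraries from an NEBNext Ultra kit, per the labels' protocols. The submitters' processing notes name StringTie 1.3.1, RSEM, DESeq2 and edgeR with no role; aligner, build and annotation are not given in the sources used here. Per the file headers, each library has an estimated count and an FPKM value for every gene of the deposited table; 8.87% of counts above 0 were not whole. Counts were rounded, filtered with filterByExpr (minimum count 10), which left 11473 of 22050 genes, scaled with TMM and tested in edgeR 4.0.16 (quasi-likelihood, robust) on all 9 libraries with group as the factor. P-values are two-sided and Benjamini-Hochberg adjusted over all genes tested, and called under 0.05. CPM values use TMM-scaled library sizes. FPKM values, as the authors made them, served for levels and for limma-trend (limma 3.58.1, R 4.3.3) on log2(FPKM + 1).

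Depths of 13675880 to 21923706 counts limit the precision of low genes. The members, the 10 lists of related genes and cell type markers (133 of 140 entries matched) and the rule for values by library (5 largest cytosolic and 3 largest mitochondrial called changes against vehicle, 3 per class between compounds, and Wars1, Eprs, Aimp1, Aimp2, Kars and Gars) were chosen with earlier results of these data known; Farsa, Iars1, Qars1 and Eef1a1 were added after their values were seen. From each list the text names the 3 called genes with the smallest p-values against vehicle, with Atf4, Xpot and Eef1e1. Alternatives were DESeq2 1.42.0, its size factors, upper-quartile factors, no filter, at least 1 CPM in 6 libraries, limma-voom, limma-trend, a replicate block, a 1.5-fold minimum, fits of only the 2 groups compared, classes by known compartment and each library left out. Added later were summed near-identical copies and the promoter groups. Values of some members by name are not reported here. The library preparation is not stated to keep strand, so antisense reads cannot be told apart.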

Additional observations from a re-analysis of the deposited data

How the results depend on the processing

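Among 84 log2 fold changes of named genes, none that was called changed sign under any alternative; over the alternatives other than left-out libraries, 706 values kept their side of the threshold, 15 gained it and 38 lost it, and with libraries left out 672 kept it, 15 gained it and 69 lost it. The number of cytosolic genes called with YEXX-2A, 12, became 2 with only the 2 groups in the fit, 5 with the replicate block and 1 with a 1.5-fold minimum, and 2 to 15 with libraries left out. The mitochondrial number with YEXX-2A, 3, became 1, 1 and 0 under the same settings and 1 to 4 with libraries left out. With YWCH-4A the cytosolic number, 16, was 11 to 19 with libraries left out, and the mitochondrial number, 2, was 1 with a 1.5-fold minimum and 1 to 3 with libraries left out. Between the compounds the cytosolic number, 17, was 9 with a 1.5-fold minimum and 15 to 21 with libraries left out. The mitochondrial number, 1, was 2 with limma-voom, 5 with limma-trend on log2(FPKM + 1), 5 with only the 2 groups, 0 with the replicate block, 0 with a 1.5-fold minimum and 0 to 5 with libraries left out. A fit of 2 groups drops the third group from the estimate of the spread. The other causes were not tested.

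Over all genes, 4145 calls with YEXX-2A became 1361 with only the 2 groups, 1931 with the replicate block, 1474 without YEXX-2A replicate 1 and 1067 without YEXX-2A replicate 2. The 3593 calls between the compounds became 5900 with only the 2 groups, 5972 without vehicle replicate 2, 2230 without YEXX-2A replicate 2, 2296 without YWCH-4A replicate 1 and 2277 without YWCH-4A replicate 3. Same-numbered libraries correlated at -0.427 to 0.165 in their deviations from group means, and 0 of 9 libraries correlated best with their own number, so the block shares a number alone. Genes under about 10 CPM, such as Tars3, Rars2 and Mars2, have the widest errors.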

Other observations

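Of 45 tested genes of tRNA processing and modification, 1 was called higher and 7 lower with YWCH-4A against vehicle, at a median log2 fold change of -0.07, and 3 higher and 5 lower with YEXX-2A, at -0.02 (edgeR, beside 30.6% and 36.1% of all genes called). With YWCH-4A the smallest p-values were those of Elac2, which trims the tRNA 3′ end, at -0.40 (SE 0.08, adjusted p = 0.00331), of Ctu2, a thiolation factor, at -0.54 (SE 0.14, adjusted p = 0.0111), and of Pus7, a pseudouridine synthase, at -0.36 (SE 0.09, adjusted p = 0.0138). With YEXX-2A they were those of Trmt44 at -0.48 (SE 0.12, adjusted p = 0.0168), Ctu1, the partner of Ctu2, at -0.47 (SE 0.12, adjusted p = 0.0187), and Trmt6, a subunit of a tRNA methyltransferase, at 0.69 (SE 0.19, adjusted p = 0.0203), which was 0.46 (adjusted p = 0.00147) without vehicle replicate 2. Of 5 genes of trans-editing and peptidyl-tRNA hydrolysis, 0 were called against vehicle with either compound, and 1 was lower with YWCH-4A than with YEXX-2A.

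Of 13 genes of mitochondrial tRNA amidation and translation factors, Tufm, the mitochondrial elongation factor Tu, was the 1 gene called against vehicle, at -0.24 (SE 0.08, adjusted p = 0.0474) with YWCH-4A and -0.27 (SE 0.08, adjusted p = 0.0293) with YEXX-2A. Tufm was at -0.14 (adjusted p = 0.0349) with YWCH-4A and -0.17 (adjusted p = 0.0147) with YEXX-2A without vehicle replicate 2. Among 7 kinases of eIF2 and their partners, 4 were called higher and 1 lower with YWCH-4A, and 3 higher and 1 lower with YEXX-2A, beside 30.6% of all genes called with YWCH-4A and 36.1% with YEXX-2A. Eif2ak4, the kinase GCN2 that senses uncharged tRNA, was at 0.37 (SE 0.07, adjusted p = 0.00223) with YWCH-4A. Gcn1, which binds it, was at -0.41 (SE 0.10, adjusted p = 0.0107) with YWCH-4A and -0.42 (SE 0.10, adjusted p = 0.0147) with YEXX-2A. Impact, an inhibitor of GCN2 activation, was at 0.70 (SE 0.18, adjusted p = 0.0143) with YWCH-4A and 0.85 (SE 0.18, adjusted p = 0.00981) with YEXX-2A, and Eif2ak2, the kinase PKR, at 1.10 (SE 0.17, adjusted p = 0.00253) with YEXX-2A. Without vehicle replicate 2 the changes were smaller but still called. Eif2ak4 was then at 0.34 and Gcn1 at -0.28 with YWCH-4A, and Gcn1 at -0.29 with YEXX-2A. Impact was at 0.47 with YWCH-4A and 0.63 with YEXX-2A, and Eif2ak2 at 0.93 with YEXX-2A.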
